A study of Mus musculus with 4 samples.

Results

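Il22-high T cells of the small intestine were defined by their own transcripts: a cell barcode counted as a member when it held at least 3 unique molecular identifiers (UMIs, each standing for 1 captured transcript) of Il22, none of Foxp3 and fewer than 3 of Penk. In the 3 libraries used, 1781 of 19960 kept barcodes were members, 874 in recipient 1, 874 in recipient 2 and 33 in recipient 4. The whole series holds 23586 kept barcodes, and recipient 3 was left out by the rule of the members because its library holds mixed RNA. The cells were CD4 T cells of the lamina propria, the layer beneath the intestinal epithelium, sorted as live CD45+CD3+CD4+ cells after the Peyer's patches were removed. Every mouse was an irradiated Rag1-/- recipient, which makes no T or B cells of its own, reconstituted 16 weeks earlier with 10000000 bone marrow cells, of which 50% came from a wild type CD45.1 donor and 50% from a Bcl3-/- CD45.2 donor. Antibody tags for the CD45.1 and CD45.2 alleles marked the donor of each cell, so both genotypes shared 1 animal, 1 gut and 1 library. Genotype and congenic strain go together: by the labels, Bcl3-/- cells are always CD45.2 and wild type cells always CD45.1, so the 2 cannot be told apart.

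Interleukin-22 is a cytokine that T cells and innate lymphoid cells make and that acts on epithelial cells, where it drives antimicrobial proteins and repair. In CD4 T cells it is often made beside interleukin-17A by type 17 helper cells, which respond to interleukin-23 and interleukin-1. Bcl3 belongs to the IkB family and acts in the nucleus with NF-kB subunits. Members were compared with all other kept barcodes of the same library and with Il17a-only barcodes, which held at least 3 Il17a UMIs and fewer than 3 of Il22, and the donors were compared within members.

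Members made up 9.40% of kept barcodes in recipient 1 (95% exact binomial interval 8.81 to 10.0%), 9.45% in recipient 2 (8.87 to 10.1%) and 2.33% in recipient 4 (1.61 to 3.26%). Recipient 4 thus stood apart from recipients 1 and 2, and its 33 members gave a summed library of 246232 UMIs against 6443539 and 5995219 in recipients 1 and 2. Intervals cover counting error only. The median member held 6327, 6222.5 and 7288 UMIs, and the median of the other kept barcodes was 5878, 5729.5 and 5814.5. The 3 libraries shared 26, 2 and 7 barcode sequences between pairs. Doublets were not removed, and 18, 7 and 0 members lay above 3 times the median UMI count of their library.

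The T cell label held in members and in other barcodes alike, all from cells sorted as CD3+CD4+. At least 1 UMI of a CD3 gene was found in 99.7, 99.8 and 100% of members, and at least 1 UMI of a T cell receptor constant gene in 100, 99.9 and 100%. In other barcodes the shares were 98.9, 99.2 and 96.5% for CD3 and 99.3, 99.4 and 98.1% for the receptor. Cd4 was detected in 92.0, 91.1 and 84.8% of members and in 84.8, 83.8 and 79.8% of other barcodes, and no member lacked both CD3 and receptor transcripts. The 8 markers of type 3 innate lymphoid cells, the other main source of interleukin-22 in the gut, summed to 218, 182 and 219 CPM (UMIs of a gene per 1000000 UMIs of the summed group) in members, 229, 155 and 304 CPM in Il17a-only barcodes and 152, 125 and 191 CPM in other barcodes, and Ncr1 was at 0 in members of all 3 recipients. The 10 gamma-delta T cell markers summed to 304, 336 and 305 CPM in members, 302, 316 and 630 CPM in Il17a-only barcodes and 182, 209 and 285 CPM in other barcodes, with Trdv4 and Sox13 at 0 in members of all 3. Ncr1 and Trdv4 were also at 0 in Il17a-only barcodes of all 3. Ncr1 and Sox13 were also at 0 in the other barcodes of recipients 1 and 4. In the test against other barcodes given below, 4 of 6 gamma-delta genes were higher in members and 1 lower. Of 7 innate lymphoid genes, 3 were higher and 2 lower. Over all genes tested, 7.96% were higher and 6.25% lower. The part of these markers in the results below was not tested. Members used many T cell receptor beta chains: 21 Trbv segments were seen in 393 members of recipient 1, 21 in 354 members of recipient 2 and 10 in 17 members of recipient 4, and the most frequent segments in recipients 1 and 2, Trbv13-2 and Trbv2, each took 13.2 to 15.8%.

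The Il22 gene lies on chromosome 10 at 118204942 to 118210047 on the plus strand (mm10/GRCm38, GENCODE M21), and Iltifb, a near-identical copy, lies 79.6 kb away at 118289629 to 118295038 on the minus strand. The reference transcripts of the pair, of 1110 and 1111 bases, were identical at 1081 of 1111 aligned positions (97.3%). Over the last 400 bases, where 3' chemistry reads, 384 of 401 aligned positions were identical (95.8%). Reads of the pair may thus not be fully told apart, and each level is uncertain.

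Il22 chose the members, so its level in them is a description with no test. A member held a median of 12, 15.5 and 10 Il22 UMIs, and the highest held 431, 421 and 161. At least 10 UMIs were found in 55.8, 62.6 and 51.5% of members, and 50 or more in 141, 174 and 4 of them. Most members were therefore far above the cutoff. Members held 88.8, 83.1 and 80.7% of all Il22 UMIs of the kept barcodes of their library. In summed libraries Il22 stood at 4083, 4976 and 3241 CPM in members, 62.7, 116 and 23.7 CPM in other barcodes and 37.0, 33.9 and 11 CPM in Il17a-only barcodes. Iltifb stood at 84.3, 81.2 and 52.8 CPM in members and 13.1, 10.2 and 8.05 CPM in other barcodes, and was detected in 29.4, 29.9 and 30.3% of members. Barcodes with Foxp3 transcripts, which the rule leaves out, reached 3 Il22 UMIs in 3.55, 3.0 and 0.95% of cases, against 11.7, 12.6 and 3.28% of barcodes without Foxp3, at median depths of 5598, 5606 and 5279 against 5983, 5814 and 6009.5 UMIs.

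The level of Il17a rose with Il22 UMIs on both sides of the cutoff, though not in every bin, and is a description with no test. Among barcodes with no Foxp3 and fewer than 3 Penk UMIs, Il17a in recipient 1 stood at 2022 CPM at 0 Il22 UMIs, 4642 CPM at 2, 5551 CPM at 3 and 11423 CPM at 50 or more, and in recipient 2 at 1518, 2996, 3513 and 8199 CPM in the same bins. Il17f, which encodes the partner cytokine of interleukin-17A, went from 116 to 1236 CPM in recipient 1 and from 113 to 1288 CPM in recipient 2 between the lowest and the highest bin, but it did not climb in every bin: in recipient 1 it was 361 CPM at 2 Il22 UMIs and 229 CPM at 4. Il23r in recipient 2 likewise stood at 36.9 CPM at 2 and 28.4 CPM at 3. Tmem176b, a membrane protein gene linked to type 17 cells, went from 337 to 546 CPM and from 493 to 647 CPM. The members just inside the cutoff, at 3 Il22 UMIs (109 and 74 barcodes), and the barcodes just outside it, at 2 (193 and 161), had Furin at 1304 and 1129 CPM inside against 1433 and 987 CPM outside. In recipient 4 no bin above 1 Il22 UMI held 20 barcodes.

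**Figure D1:**
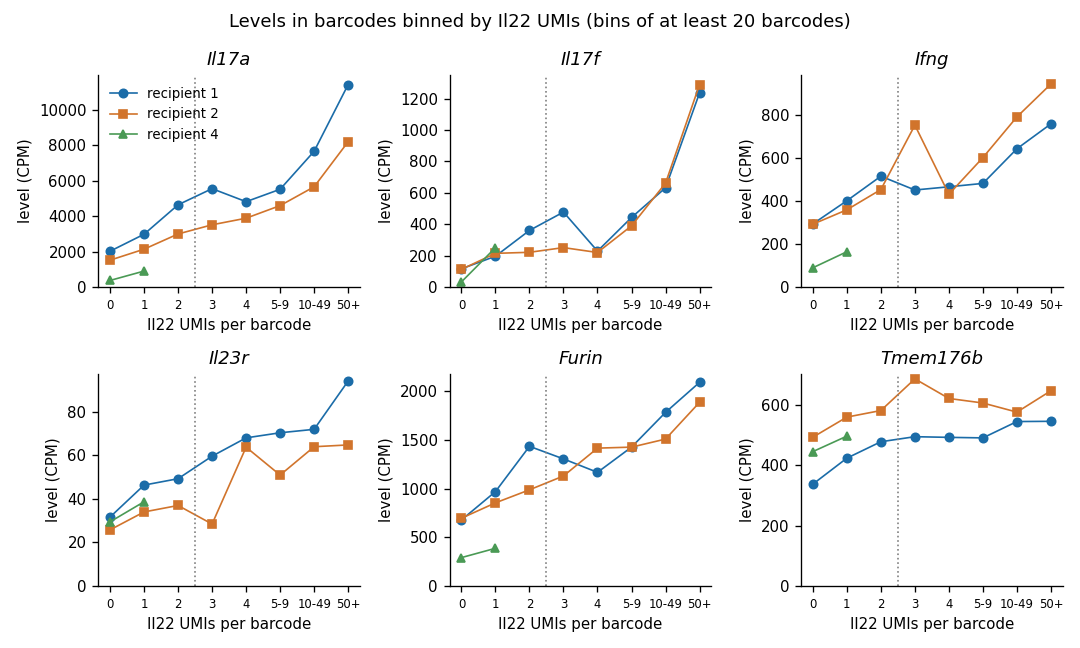
Level of 6 genes (y axis, CPM) in barcodes with no Foxp3 and fewer than 3 Penk UMIs, binned by their Il22 UMIs (x axis), 1 line per recipient, with the dotted line at the cutoff and bins of fewer than 20 barcodes not drawn. Il17a and Il17f are highest in the bin of 50 or more Il22 UMIs in recipients 1 and 2, whereas Tmem176b is nearly level above the cutoff.

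Members were a mixture by their other cytokines. At least 3 Il17a UMIs were present in 640 of 874, 542 of 874 and 15 of 33 members (73.2, 62.0 and 45.5%), and no Il17a UMI in 157, 249 and 17 (18.0, 28.5 and 51.5%). Ifng, which encodes interferon gamma, reached 3 UMIs in 361, 391 and 9 members (41.3, 44.7 and 27.3%), and both cytokines did in 284, 269 and 5 (32.5, 30.8 and 15.2%). Neither an Il17a nor an Ifng UMI was found in 62, 114 and 11 members. Seen from the other side, 24.7, 24.3 and 12% of all barcodes with at least 3 Il17a UMIs reached 3 Il22 UMIs, against 3.92, 5.47 and 1.66% of the remaining barcodes. Ifng reached 3 UMIs in 44.4, 49.6 and 33.3% of the Il17a-high members, 36.9, 39.0 and 17.6% of the members without Il17a and 31.5, 30.4 and 21.2% of Il17a-only barcodes. The median Il22 count was 13, 18 and 6 UMIs in Il17a-high members and 8, 12 and 14 in members without Il17a.

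Against all other kept barcodes of the same recipient, members had higher levels of Il17a, Il17f and most type 17 regulators and lower levels of most naive T cell genes. Most regulatory T cell genes were lower too, which the rule shapes because it bars Foxp3. With the comparator held to the same rule this did not hold, as given below. Of 10828 genes tested, 862 were higher in members (7.96%) and 677 lower (6.25%) at an adjusted p under 0.05 (edgeR quasi-likelihood test on summed counts, recipient as a block, Benjamini-Hochberg), 14.2% in all. A left-out recipient changed these counts: 410 genes passed without recipient 1, 415 without recipient 2 and 1986 without recipient 4. Levels below are CPM in recipients 1, 2 and 4 in that order, and fold changes are log2, members minus comparator.

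Of 18 cytokine genes tested, 8 were higher and 2 lower, with a median log2 fold change of 0.30 against -0.01 over all genes tested. Il17a stood at 7253, 5617 and 1893 CPM in members and 2015, 1539 and 388 CPM in other barcodes, a log2 fold change of 1.99 (SE 0.07) with an adjusted p of 4.7e-13. The member level of recipient 4 lay within the range of the other barcodes of recipients 1 and 2, so the groups overlap across animals but not within any. Il17f stood at 630.2, 659 and 475 CPM against 120.2, 133 and 44.6 CPM, a log2 fold change of 2.47 (SE 0.09) and the largest rise among the genes the naming rule took. Its lowest member level, in recipient 4, was above the highest level in other barcodes. Ifng rose by 1.32 (SE 0.07) on the log2 scale, from 272, 272 and 78.8 to 584, 746 and 231 CPM. Ccl20, which encodes a chemokine that draws CCR6-bearing cells, rose by 1.15 (SE 0.15) to 226, 355 and 634 CPM, with recipient 4 highest. Il21 rose by 0.62 (SE 0.17) from low levels.

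Il17a and Il17f are neighbours on chromosome 1, at 20730905 to 20734496 (plus strand) and 20777146 to 20790617 (minus strand), 42.65 kb apart. The 200 bases from 250 to 51 before the RefSeq start of Il17a (chr1:20730655-20730854, plus strand, GRCm38.p6) are shown because Il17a was among the leading rises and because genes of a nuclear receptor (Rora) and of AP-1 factors, whose motifs were searched in it, were among the regulators that rose. Capitals mark the matches.
Il17a upstream window: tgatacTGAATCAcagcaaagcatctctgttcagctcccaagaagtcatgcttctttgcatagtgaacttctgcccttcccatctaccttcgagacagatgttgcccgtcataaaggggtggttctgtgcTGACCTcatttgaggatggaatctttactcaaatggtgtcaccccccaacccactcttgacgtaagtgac
Searched on both strands, the window held 1 nuclear receptor half-site (AGGTCA, here read as its reverse complement), 1 AP-1 site (TGANTCA), no STAT site (TTCNNNGAA) and no NF-kB site (GGGNNTTCC), and the 2 matches did not overlap. Among 32851 such windows of all genes in the table, 11.4% held the nuclear receptor half-site, 5.57% the AP-1 site, 5.76% the STAT site and 3.73% the NF-kB site. A match is a description of letters only.

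Of 20 cytokine receptor genes tested, 7 were higher and 6 lower, with the interleukin-23 and interleukin-1 receptor genes among the 7. Il23r, which encodes the interleukin-23 receptor chain, stood at 73.1, 58.4 and 77.2 CPM against 34.7, 27.3 and 29.5 CPM, a log2 fold change of 1.12 (SE 0.08). Il1r1, the signalling receptor of interleukin-1, stood at 127, 114 and 130.0 against 60.2, 52.3 and 57.1 CPM (1.13), and the decoy receptor Il1r2 at 68.9, 65.9 and 36.6 against 30.2, 27.2 and 27.5 CPM (1.23). For Il23r, Il1r1 and Il1r2 every member level lay above every level in other barcodes. Il17re, a receptor chain of the interleukin-17 family, rose by 0.93 (SE 0.07). Il7r, the receptor of the survival cytokine interleukin-7, was lower (-0.47 (SE 0.08)), as was Il6st, the shared signalling chain of the interleukin-6 family (-1.41 (SE 0.16)), with recipient 4 going the other way for Il6st.

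Of 13 type 17 regulators tested, 8 were higher and none lower, with a median log2 fold change of 0.49. The 2 lists of type 17 states did not go one way: of 15 inflammatory type 17 genes 5 were higher and 4 lower (median 0.05), with Ifng, Il1r1 and Il23r higher and Ccl4 and Ccl5 lower, and of 7 homeostatic type 17 genes tested 1 was higher and 4 lower (median -0.75), with Il10, Il6st and Slamf6 lower. The fall of Il10 turned the other way when the other barcodes were held to the rule on Foxp3 and Penk, as given below. Rora, which encodes a nuclear receptor, stood at 737, 817 and 296 CPM in members and 406, 509 and 254 CPM in other barcodes (0.75 (SE 0.06)). The activation factor gene Irf4 changed by 0.99 (SE 0.07), Bhlhe40 by 0.87 (SE 0.10) and the AP-1 members Batf and Fosl2 by 0.30 (SE 0.06) and 0.54 (SE 0.06). Ahr and Maf, which encode 2 further regulators of interleukin-22 and of gut T cells, did not pass, with log2 fold changes of 0.03 (SE 0.08) and 0.04 (SE 0.06). Tmem176a and Tmem176b, overlapping neighbours on chromosome 6, passed with 0.56 and 0.51, at 435, 502 and 366 CPM in members against 276, 345 and 346 CPM for Tmem176a.

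Genes outside the immune lists led the other rises. Furin, which encodes a protease that cleaves precursor proteins, stood at 1637, 1528 and 1251 CPM against 703, 688 and 288 CPM (1.42 (SE 0.11)), and its neighbour 10.8 kb away on chromosome 7, the tyrosine kinase gene Fes, at 52.3, 51 and 32.5 against 20.2, 19.8 and 4.71 CPM (1.43 (SE 0.11)). In both, every member level was above every level in other barcodes. The cGMP phosphodiesterase gene Pde5a rose by 1.77 (SE 0.06) with member levels of 168, 167 and 179 CPM, narrow across the recipients. The remaining leading rises were Plekhg1 (1.97), the growth factor receptor gene Pdgfrb (1.79), Srgap3 (1.7), the protease inhibitor gene Serpine2 (1.64), Ablim3 (1.5), Abi3bp (1.5) and the RNA-binding protein gene Rbm24 (1.39). Rbm24 stood at 268, 192 and 154 CPM in members, 287, 189.9 and 163 CPM in Il17a-only barcodes and 113, 72.0 and 32.4 CPM in other barcodes.

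Of 20 activation genes tested, 12 were higher and 3 lower, with Jun at 0.83 (SE 0.10), Atf3 at 0.90 (SE 0.10) and Nr4a1, an early target of the T cell receptor, at 0.53 (SE 0.05). The summed level of 10 dissociation-stress genes, which overlap with the activation list, was 9996, 9897 and 7091 CPM in members and 7956, 8110 and 4355 CPM in other barcodes, and its part in these rises was not tested. Of 14 proliferation genes, 7 were higher and none lower. Mki67, a marker of cycling cells, stood at 77.6, 95.6 and 40.6 CPM against 41.5, 61.8 and 52.9 CPM (0.75 (SE 0.08)), with the member level lower in recipient 4 and higher in recipients 1 and 2. Of 18 NF-kB and IkB genes, 7 were higher and 1 lower: the inhibitor genes Nfkbia and Tnfaip3 rose by 0.72 (SE 0.08) and 0.85 (SE 0.12). Bcl3 itself stood at 70.6, 69.2 and 69.0 CPM in members and 71.9, 70.6 and 71.1 CPM in other barcodes and did not pass (adjusted p = 0.993).

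Among homing genes, 9 of 21 were higher and 9 lower. Cxcr6, a receptor of tissue-resident T cells, rose by 0.74 (SE 0.05), with every member level above every other level. The small intestine homing receptor gene Ccr9 rose by 0.37 (SE 0.06). S1pr1 and Klf2, which serve exit from tissue, were lower (-1.25 (SE 0.11) and -0.92 (SE 0.09)). Itgae, which encodes a subunit of the CD103 integrin of resident T cells, stood at 12.7, 21 and 16.2 CPM in members against 61.1, 75.2 and 112 CPM (-2.02 (SE 0.11)). All 12 sterol and lipid genes tested missed the threshold in this comparison, and 1 of 15 glycolysis genes passed, the hexokinase gene Hk2 (1.05 (SE 0.12)).

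The leading falls included chemokine, naive and B cell genes. Xcl1, a chemokine of type 1 and cytotoxic cells, stood at 8.69, 6.67 and 4.06 CPM in members against 62.9, 43.4 and 14.2 CPM (-2.76 (SE 0.13)), and Ccl5, another, at 256, 185 and 16.2 against 615, 521 and 400.3 CPM (-1.42 (SE 0.11)). Of 9 cytotoxic genes, 4 were higher and 3 lower, with a median log2 fold change of 0.10. Of 13 type 1 helper genes, 8 were lower and 3 higher, Ifng among the 3. The naive and central memory list had 9 of 10 genes lower and none higher, with the lymph node homing receptor Ccr7 at -1.36 (SE 0.10) and Lef1 at -1.12 (SE 0.12). Cd27 and Tnfrsf9, 2 receptors of the TNF receptor superfamily, were lower by log2 fold changes of -1.76 (SE 0.10) and -2.23 (SE 0.13). The class II invariant chain gene Cd74 (-2.04), Matk (-1.32), Marcks (-1.27) and Ttn (-1.44) were lower too. Apoe and Sostdc1 had the largest falls of the genes named by the rule, with -4.46 (SE 0.26) and -4.06 (SE 0.32). Both were near the detection limit in members, at 0.776, 1.00 and 0 CPM and 0.466, 0.834 and 0 CPM, where 3 counts stand for 0.466, 0.500 and 12.2 CPM. The 8 B and plasma cell markers summed to 42.2, 84.7 and 32.5 CPM in members and 296, 1669 and 192 CPM in other barcodes.

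Of 11 regulatory T cell genes tested, 8 were lower in members and 2 higher, a result that the rule shapes because it bars Foxp3. Il10, which encodes an inhibitory cytokine, stood at 165, 119 and 16.2 CPM in members against 309.9, 317 and 44.6 CPM (-1.12 (SE 0.08)). When the other barcodes were held to the same absence of Foxp3 and Penk, the list had 4 of 9 genes higher and 4 lower, and the Il10 difference turned to 0.24 (SE 0.07), higher in members. Under that comparator Itgae remained lower, at -0.97 (SE 0.12), and Tnfrsf9 at -0.85 (SE 0.16), both smaller in size. Ctla4, an inhibitory receptor also borne by activated T cells, was higher in members with either comparator, at 0.68 (SE 0.10) and at 0.95 (SE 0.10).

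The second comparison set members beside Il17a-only barcodes to ask what goes with Il22 among cells that express Il17a. Of 10552 tested, 295 were higher in members (2.8%) and 161 lower (1.53%), 4.32% in all. The count changed with the recipients, with 80 genes passing without recipient 1, 51 without recipient 2 and 997 without recipient 4, and without the recipient block none passed in edgeR, with 443 at an unadjusted p under 0.05. DESeq2 called 49. Il17a took no test here because it chose the comparator, and stood at 7253, 5617 and 1893 CPM in members and 6946, 5544 and 3344 CPM in Il17a-only barcodes. Tmem176a (0.00 (SE 0.06)) and Tmem176b (0.11 (SE 0.07)) did not pass.

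Because some members held no Il17a, the comparison was run again with only the members that held at least 3 Il17a UMIs. Both sides then passed the same floor, but their Il17a levels were not matched. Members held 46736, 33673 and 466 Il17a UMIs in recipients 1, 2 and 4. All came from Il17a-high members except 1 or 2 UMIs in each of 77, 83 and 1 barcodes. The summed libraries of Il17a-high members were 4728429, 3754566 and 107482 UMIs. Their Il17a level thus lies above the 6946, 5544 and 3344 CPM of Il17a-only barcodes in all 3 recipients. The 7253, 5617 and 1893 CPM of all members understate this difference. The part of this difference in the results of the second fit was not tested. Of 10109 genes, 224 were then higher in members (2.22%) and 120 lower (1.19%), 3.4% in all.

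Il17f, the 2 interleukin-1 receptor genes and Il23r passed in both fits, higher in members. Il17f stood at 839, 1038 and 958 CPM in Il17a-high members and 410.0, 461 and 341 CPM in Il17a-only barcodes, with log2 fold changes of 0.61 (SE 0.06) for all members and 1.16 (SE 0.05) for Il17a-high members. The levels of the 2 groups did not overlap. Il1r2 gave 0.43 (SE 0.09), higher in 2 of 3 recipients, and 0.76 (SE 0.08), Il1r1 0.38 (SE 0.08) and 0.50 (SE 0.07), and Il23r 0.42 (SE 0.08) and 0.53 (SE 0.09). Ifng gave 0.38 (SE 0.09) and 0.58 (SE 0.05), higher in 2 of 3 recipients in both fits, with recipient 4 going the other way at 649.7, 859 and 261 CPM in Il17a-high members against 501, 500.3 and 326 CPM. Irf4 missed the threshold for all members (0.21 (SE 0.06)) and passed for Il17a-high members (0.50 (SE 0.07)). Pde5a, Plekhg1, Srgap3, Abi3bp, Serpine2 and Fes, which led the rises over other barcodes, were also higher in Il17a-high members than in Il17a-only barcodes, by 0.91, 0.98, 0.82, 0.89, 0.72 and 0.71. Gem, which encodes a small GTPase, rose by 0.69 (SE 0.06). The proliferation list had 5 of 14 genes higher and none lower in both fits, with Mki67 at 0.50 (SE 0.08) and 0.60 (SE 0.08).

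Il10 was lower in members in both fits. It stood at 215, 177 and 37.2 CPM in Il17a-high members, 11.8, 27.6 and 0 CPM in members without Il17a and 311, 335 and 39.1 CPM in Il17a-only barcodes, with log2 fold changes of -1.13 (SE 0.09) and -0.67 (SE 0.06). Members of both classes lay below Il17a-only barcodes in each recipient, by the least in the Il17a-high members of recipient 4. The share of barcodes with an Il10 UMI was 20.4, 13.6 and 6.06% in members and 28.7, 27.3 and 7.58% in Il17a-only barcodes. Entpd1 and Nt5e, which encode the CD39 and CD73 enzymes that turn ATP into adenosine, were lower (-0.86 (SE 0.12) and -0.69 (SE 0.07)) for all members. Lag3, an inhibitory receptor gene, gave -0.65 (SE 0.07) for all members and missed the threshold for Il17a-high members (-0.18 (SE 0.07)), and Maf, a regulator of Il10, likewise gave -0.34 (SE 0.06) and -0.11 (SE 0.05). The other leading falls were Ncmap (-1.17), Igfbp7 (-1.12), the gelatinase gene Mmp9 (-0.85), Itgae (-0.84), Marcks (-0.84), Mmd (-0.81), Sccpdh (-0.78), Dst (-0.74) and Cdk14 (-0.67). In the fit of Il17a-high members the leading falls also took in the regulatory and memory genes Ikzf2 (-0.68), Izumo1r (-0.78), Slamf6 (-0.66) and Cd27 (-0.67), and S100a4 (-0.73). The Il17a-only barcodes took in 298, 409 and 15 with Foxp3 or at least 3 Penk UMIs. When all members were set against Il17a-only barcodes held to the rule on both genes, Itgae turned to 0.27 (SE 0.15) and did not pass, Ikzf2 gave -0.10 (SE 0.07) and did not pass, Izumo1r was higher in members (0.55 (SE 0.15)), and Il10, Entpd1 and Nt5e were still lower at -0.45 (SE 0.07), -0.61 (SE 0.13) and -0.59 (SE 0.06). That comparator was not run for the Il17a-high members alone, so it does not show what becomes of the falls in their fit. Of the homeostatic type 17 list, 3 of 7 genes were lower and none higher, for all members and for Il17a-high members alike. The B and plasma cell markers were unequal here too, with summed levels of 42.2, 84.7 and 32.5 CPM in members against 115, 1654 and 53.8 CPM in Il17a-only barcodes, and their part in these differences was not tested.

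A further group passed when members without Il17a were counted and not among the Il17a-high members, a difference between fits that was not itself tested. Gramd3 gave 1.36 (SE 0.14) for all members and -0.08 (SE 0.17) for Il17a-high members, the collagen-binding integrin gene Itga1 1.24 (SE 0.14) and -0.02 (SE 0.22), the granzyme inhibitor gene Serpinb9 1.07 (SE 0.11) and 0.03 (SE 0.15), Ctsw 1.01 (SE 0.10) and 0.03 (SE 0.13), and the cytokine feedback gene Socs3 1.02 (SE 0.14) and -0.03 (SE 0.11). None of these 5 passed in the second fit. The stem-like memory factor gene Tcf7 turned from 0.77 (SE 0.09) to -0.28 (SE 0.08), passing in both directions, and Il7r from 0.37 (SE 0.06) to -0.29 (SE 0.06). Evl gave 1.04 (SE 0.12) and then -0.46 (SE 0.16), the second not passing. Atf3, Cd40lg and Hk2 kept their direction, at 1.27 (SE 0.11), 0.71 (SE 0.06) and 1.04 (SE 0.11) for all members and 0.39 (SE 0.14), 0.34 (SE 0.07) and 0.50 (SE 0.11) for Il17a-high members, of which Atf3 missed the threshold. Atp8a2 (1.12), the drug efflux pump gene Abcb1b (1.15), the hypoxia factor gene Epas1 (0.92) and Nsg2 (0.90) completed the leading rises for all members. In the second fit Atp8a2 and Abcb1b passed at 0.43 (SE 0.13) and 0.59 (SE 0.18), and Epas1 (0.43 (SE 0.18)) and Nsg2, which turned to -0.78 (SE 0.28), did not.

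**Figure D2:**
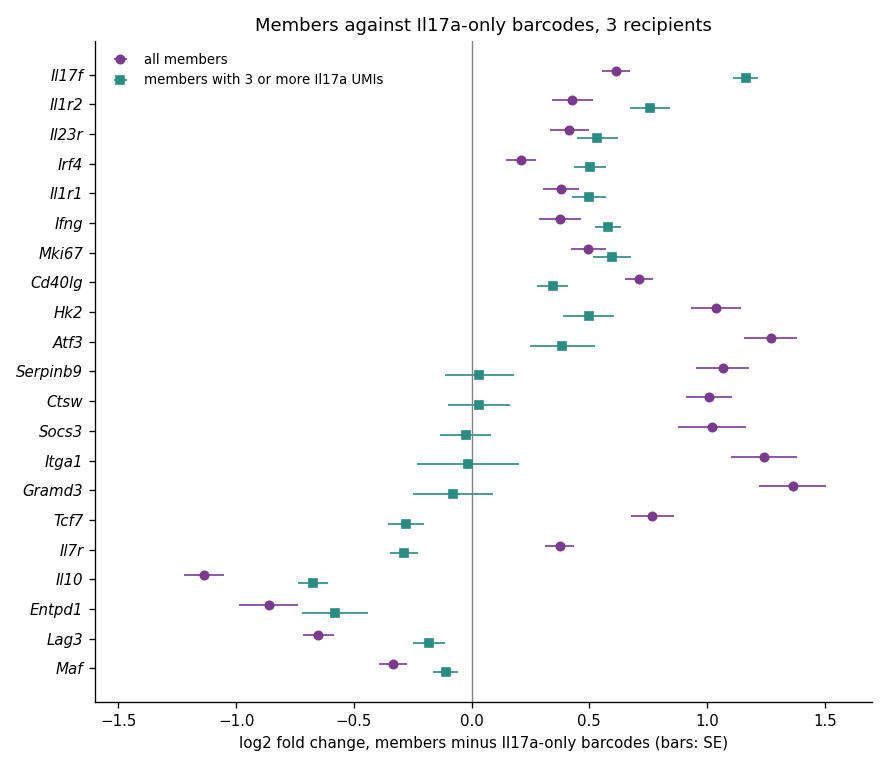
Log2 fold change (x axis, with its standard error as bars) of 21 genes (y axis) in members minus Il17a-only barcodes, for all members (circles) and for members with at least 3 Il17a UMIs (squares). Il17f, Il1r2 and Il23r lie right of 0 in both, Il10 and Entpd1 left of 0 in both, and Serpinb9, Ctsw, Socs3, Itga1 and Gramd3 fall to near 0 for the Il17a-high members.

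The third comparison split the members by Il17a. Members with at least 3 Il17a UMIs and members with none differed at 930 of 8390 genes, 459 higher in the Il17a-high members (5.47%) and 471 lower (5.61%), 11.1% in all. Leaving out a recipient gave 189, 174 and 1447 genes without recipients 1, 2 and 4. The members of recipient 4 numbered 15 and 17 in the 2 classes, where 3 counts stand for 27.9 and 22.8 CPM.

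The leading rises in Il17a-high members included Il17f, Gzma and Ccr1. Of 6 cytotoxic genes tested, 4 were higher in Il17a-high members and 2 lower, the 2 being Ctsw (-1.99 (SE 0.16)) and Serpinb9, and the chemokine genes Ccl4 (-2.70 (SE 0.43)) and Xcl1 (-1.58 (SE 0.39)) were lower in them too. Il17f stood at 839, 1038 and 958 CPM against 29.1, 27.6 and 0 CPM (5.10 (SE 0.16)). Gzma, which encodes granzyme A, stood at 989.8, 2035 and 428 against 82, 21 and 0 CPM (4.95 (SE 0.26)), and Gzmb at 789, 751 and 902 against 154, 38.4 and 387 CPM (2.82 (SE 0.21)). The lowest Gzma level of the Il17a-high members, in recipient 4, was above all levels of the members without Il17a. The chemokine receptor gene Ccr1 stood at 138, 133 and 158 against 8.20, 2.40 and 0 CPM (4.84 (SE 0.26)), Ccl20 at 301, 542 and 1451 against 31.0, 45.0 and 0 CPM (3.67 (SE 0.18)), and the inhibitory receptor genes Havcr2 and Lag3 differed by 3.8 (SE 0.29) and 3.01 (SE 0.19). Il10 was higher in Il17a-high members by 3.15 (SE 0.20), and the epithelial growth factor gene Areg by 1.47 (SE 0.15). The other leading genes were Itgb5 (5.30), Nckap5 (4.68), Ociad2 (4.48), Rnf150 (4.20), Blk (4.15) and Neb (3.68), of which Blk, a kinase gene, is also on the gamma-delta list. That list summed to 332, 376 and 493 CPM in Il17a-high members and 262, 252 and 144 CPM in members without Il17a, and its part was not tested. In Il17a-only barcodes Gzma stood at 691, 1302 and 1823 CPM and Ccr1 at 130.3, 93.0 and 61.1 CPM.

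The type 17 regulators split the same way, with 8 of 13 higher in Il17a-high members and none lower. Irf4 differed by 1.34 (SE 0.14), Maf by 0.86 (SE 0.09) and Runx1 by 1.06 (SE 0.10). Rora, at 763, 814 and 344 against 734, 790.3 and 212 CPM, did not pass (0.04 (SE 0.10)), nor did Il23r (0.46 (SE 0.17)) or Bhlhe40 (0.16 (SE 0.10)). For these 3 the members without Il17a stood above all other barcodes in recipients 1 and 2, for example Rora at 734, 790.3 and 212 CPM against 406, 509 and 254 CPM.

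Of 8 naive and central memory genes tested, 6 were lower in Il17a-high members and none higher, while of 9 follicular helper genes 2 were higher and 3 lower. Tcf7 stood at 316, 322 and 721 CPM in members without Il17a and 73.6, 97.5 and 65.1 CPM in Il17a-high members (-2.03 (SE 0.12)). Every level of the first was above every level of the second. Il7r stood at 679, 924 and 865 against 225, 385 and 186 CPM (-1.53 (SE 0.10)), the type 1 chemokine receptor Cxcr3 at 115, 147 and 114 against 33.2, 44.5 and 18.6 CPM (-1.82 (SE 0.14)), and Socs3 at 161, 177 and 349 against 36.8, 48.7 and 55.8 CPM (-2.07 (SE 0.13)). None of these 3 groups of levels overlapped. The survival gene Bcl2 differed by -1.44 (SE 0.15), Myc by -1.94 (SE 0.28), the helper ligand gene Cd40lg by -0.91 (SE 0.10) and the follicular homing receptor gene Cxcr5 by -2.31 (SE 0.37), the last from low levels of 27.3, 13.2 and 45.5 CPM. The remaining leading falls were Evl (-2.77), the heat shock gene Hspa1b (-2.69), Nsg2 (-2.68), Gramd3 (-2.61), Itga1 (-2.49), Serpinb9 (-2.20), Aff3 (-2.18) and Cd9 (-2.04).

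**Figure D3:**
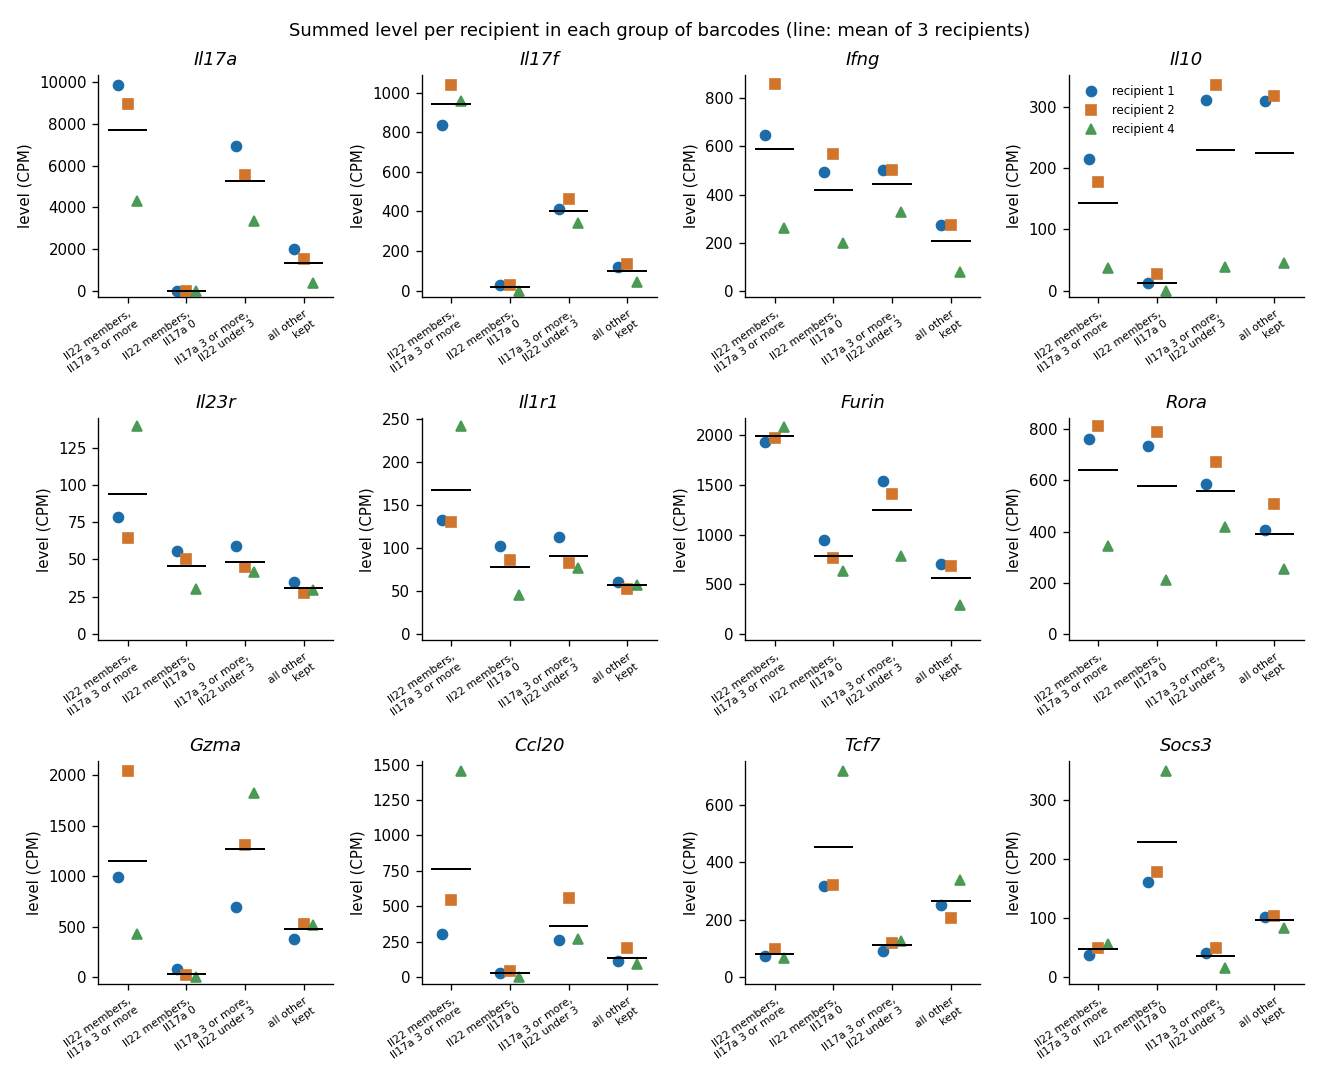
Summed level (y axis, CPM) of 12 genes in 4 groups of barcodes (x axis): members with at least 3 Il17a UMIs, members with none, Il17a-only barcodes and all other kept barcodes, with 1 point per recipient and a line at the mean of 3. Il17f, Gzma and Ccl20 are near 0 in members without Il17a, where Tcf7 and Socs3 are highest.

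The donors were checked first by Bcl3, the gene that the CD45.2 donor is labelled as lacking. In members its 3' tags stood at 50.6 CPM (2 UMIs), 12.6 CPM (3 UMIs, exact Poisson interval 2.59 to 36.8) and 0 CPM (0 UMIs of 1 barcode) with the CD45.1 tag and at 72.0, 72.9 and 71.6 CPM with the CD45.2 tag, in recipients 1, 2 and 4. In the other kept barcodes they stood at 31.3 (interval 26.5 to 36.7), 22.0 (18.2 to 26.4) and 14.0 CPM (6.39 to 26.5) with the CD45.1 tag and at 76.7, 76.9 and 76.1 CPM with the CD45.2 tag. Bcl3 tags were thus higher in the barcodes labelled Bcl3-/- in all 3 recipients, which goes against the direction of that label. The sources used here do not give the deleted stretch of the gene, so a 3' tag may lie outside it, and these values do not check the genotype. The donors are therefore named below by their antibody tag, CD45.1 for the barcodes labelled wild type and CD45.2 for those labelled Bcl3-/-, and every donor direction rests on those labels.

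The donors contributed unequally to the members. Of barcodes with a donor call, members were 5 of 736 CD45.1 barcodes in recipient 1 (0.679%, interval 0.221 to 1.58%), 39 of 851 in recipient 2 (4.58%, 3.28 to 6.21%) and 1 of 102 in recipient 4 (0.980%, 0.0248 to 5.34%). Of CD45.2 barcodes, members were 855 of 8398 (10.2%, 9.54 to 10.8%), 815 of 8198 (9.94%, 9.30 to 10.6%) and 32 of 1289 (2.48%, 1.7 to 3.49%). The share was lower among CD45.1 barcodes in 3 of 3 recipients, and the intervals of the donors overlapped in recipient 4. The difference in log2 odds, CD45.2 minus CD45.1, was 3.91, 1.18 and 0.81, with a mean of 1.97 (SD 1.7, n = 3). An exact permutation test by sign flips, two-sided, gave p = 0.25, the smallest that 3 recipients allow. Median depth was 6350.5, 6276 and 6491 UMIs in CD45.1 barcodes and 5869, 5706 and 5790 in CD45.2 barcodes. Among members it was 7157, 5874 and 8899 UMIs with the CD45.1 tag and 6310, 6203 and 7102.5 with the CD45.2 tag. The part of depth in the shares was not tested. No donor call could be made for 14, 20 and 0 members.

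The Il17a-only barcodes were unequal as well, at 8.97, 10.9 and 1.96% of CD45.1 and 24.2, 22.0 and 9.93% of CD45.2 barcodes. Among barcodes with at least 3 Il17a UMIs, 5 of 71 (7.04%, interval 2.33 to 15.7%), 20 of 113 (17.7%, 11.2 to 26.0%) and 0 of 2 CD45.1 barcodes also reached 3 Il22 UMIs, against 686 of 2720 (25.2%, 23.6 to 26.9%), 589 of 2391 (24.6%, 22.9 to 26.4%) and 18 of 146 (12.3%, 7.47 to 18.8%) of the CD45.2 barcodes. In recipient 1 these intervals were apart and in recipient 2 they overlapped, and this difference was given no test.

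**Figure D4:**
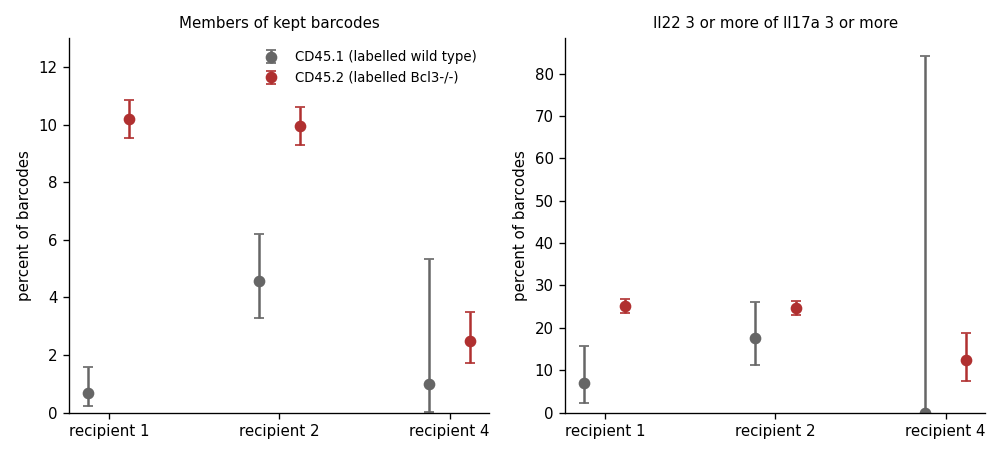
Share of barcodes (y axis, percent, with 95% exact binomial intervals) by donor in recipients 1, 2 and 4 (x axis): members among all barcodes with a donor call (left) and barcodes with at least 3 Il22 UMIs among those with at least 3 Il17a UMIs (right). On the left the CD45.1 point lies below the CD45.2 point in each recipient.

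Within members Il22 itself stood at 3165, 4547 and 3146 CPM in CD45.1 members and 4161, 5104 and 3244 CPM in CD45.2 members, the first from 5, 39 and 1 barcodes. Il17a-high members were 14 of 39 CD45.1 members in recipient 2 (35.9%) and 63.2% of CD45.2 members there, while all 5 CD45.1 members of recipient 1 held at least 3 Il17a UMIs. Only recipient 2 had 10 or more members of each donor, so the test across recipients that was planned could not be run. Lowering the minimum to 5 barcodes added recipient 1, and of 9544 genes 8 were then higher in CD45.2 members (0.0838%) and 4 lower (0.0419%), 0.126% in all, 2 recipients entering the fit. DESeq2 on the same sums called none, with 59 genes at an unadjusted p under 0.05, and without the recipient block 34 genes passed.

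Of the 4 genes lower in CD45.2 members, the survival gene Bcl2 stood at 101 CPM (4 UMIs, exact Poisson interval 27.6 to 259) and 231 CPM (55 UMIs, 174 to 300.3) in CD45.1 members of recipients 1 and 2 and at 48.0 and 70.6 CPM in CD45.2 members. The log2 fold change was -1.52 (SE 0.37) with an adjusted p of 0.0415. In recipient 2 it was detected in 19 of 39 and 178 of 815 members, and among members with fewer than 3 Il17a UMIs it stood at 333 CPM (interval 245 to 443) in CD45.1 and 124 CPM (109 to 140.1) in CD45.2 members. Among those with at least 3 Il17a UMIs the 82.2 CPM of CD45.1 members rested on 8 UMIs, 6 of them from 1 barcode, with an interval of 35.5 to 162 that holds the 39.9 CPM of CD45.2 members. Ms4a4b, a surface protein gene of T cells, stood at 506 and 600 CPM in CD45.1 members and 166 and 231 CPM in CD45.2 members (-1.37 (SE 0.27)). Ctse, which lies within 10 Mb of Ptprc, the gene that carries the CD45.1 and CD45.2 alleles, gave -4.01 (SE 0.99), and donor strain and genotype cannot be told apart there. Ccl4, a chemokine gene, gave -4.20 (SE 0.44), but 101 of its 102 UMIs in CD45.1 members of recipient 2 came from 1 barcode and recipient 1 had 0. Ccl4 was also the 1 gene of 10825 (0.00924%) whose donor difference passed a test against that of all other kept barcodes, with a log2 interaction of -3.16 (SE 0.40). In those other barcodes all 4 genes were also lower with the CD45.2 tag in recipients 1 and 2. These directions are thus not particular to members. In TMM-scaled CPM, Bcl2 stood there at 315 and 350 with the CD45.1 tag and 92.8 and 115 with the CD45.2 tag. Ms4a4b stood at 742 and 760 against 295 and 322, and Ctse at 82.5 and 58.7 against 4.06 and 3.35.

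The 8 genes higher in CD45.2 members included effector genes of the Il17a-high class. Il17f stood at 101 and 168 CPM in CD45.1 and 649 and 692 CPM in CD45.2 members (2.24 (SE 0.31)), and Il17a at 5190 and 2559 against 7343 and 5815 CPM (0.98 (SE 0.21)). Gzma stood at 658 and 113 against 744 and 1361 CPM (2.22 (SE 0.29)), with 25 of its 27 UMIs in CD45.1 members of recipient 2 from 1 barcode, and Gzmb at 279 and 231 against 614 and 503 CPM (1.21 (SE 0.28)). Gem gave 1.97 (SE 0.43), the surface antigen gene Ly6a 1.35 (SE 0.31) and the respiratory chain subunit gene Ndufa1 1.88 (SE 0.29), at 177 and 206 against 786 and 653 CPM. Nrgn had 0 UMIs in CD45.1 members of both recipients, with exact Poisson upper limits of 93.4 and 15.5 CPM, against 91.9 and 68.6 CPM in CD45.2 members, so the limit lay below the CD45.2 level in recipient 2 and not in recipient 1. In the other kept barcodes all 8 genes were also higher with the CD45.2 tag in both recipients. These directions are thus not particular to members. In TMM-scaled CPM, Il17a stood there at 873 and 678 with the CD45.1 tag and 2085 and 1685 with the CD45.2 tag. Gzmb stood at 320 and 384 against 663 and 641, and Ndufa1 at 223 and 265 against 352 and 371. The Il17a-high share was 100% of CD45.1 and 73.0% of CD45.2 members in recipient 1, from 5 CD45.1 barcodes. In recipient 2 the order was the other way, at 35.9 and 63.2%. The part of this share in the gene differences of recipient 2 was not tested. Among the Il17a-high members of that recipient, 14 with the CD45.1 tag and 515 with the CD45.2 tag, Gzmb stood at 555 CPM (interval 417 to 724) against 767 CPM, Gem at 123 (63.7 to 215) against 239.9 CPM, Ly6a at 144 (78.6 to 241) against 435 CPM and Ndufa1 at 267 (174 to 391) against 877 CPM. Il17f stood there at 257 against 1081 CPM, with 22 of its 25 UMIs in CD45.1 members from 1 barcode. The 54 Gzmb UMIs of the CD45.1 members came from 4 barcodes, 26 of them from 1. Each of these 5 genes had a lower summed level with the CD45.1 tag within the class. Gzmb and Gem were closer between the donors there than over all members. Gem was detected in 42.9% of the CD45.1 and 39.6% of the CD45.2 members of the class, so its share of barcodes was not lower. No test was run within the class.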

How the data were processed

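The deposited values are raw UMI counts per gene and barcode, made by the authors with Cell Ranger 6.1.1 on mm10, per the submitters' processing notes, with 31053 genes and 2 donor tags per matrix. The sources used here do not state filters on cells or doublet removal, and no doublet caller was run. Barcodes with at least 500 genes and at most 10% mitochondrial counts were kept. The members, gene lists and tests were chosen with earlier results of these data known. Donors were called from tag counts of at least 10 with a ratio of at least 4.

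Counts were summed per recipient and cell group, since cells are not replicates, and tested with edgeR 4.0.16 (R 4.3.3; quasi-likelihood, TMM, filterByExpr, Benjamini-Hochberg over all genes tested), with recipient as a block because both sums come from 1 animal. Sums of the same recipient deviated together, with correlations of 0.42, 0.61 and 0.48 against other barcodes, 0.39, 0.50 and 0.37 against Il17a-only barcodes and 0.096, 0.20 and 0.11 in the Il17a split. The genes of the rule, and Il17a where it chose a group, were not tested. A call means an adjusted p under 0.05, and SE is the fold change divided by the square root of F. Printed levels are plain CPM without TMM, except where named as TMM-scaled. Named genes were the 12 largest rises and falls (10 in the Il17a split and the donor comparison) that passed, went the same way in every recipient and reached 20 CPM in the higher group, plus members of the gene lists and markers. On simulated data, 2-fold changes were recovered in 82%, 70% and 63% and 4-fold changes in 100%, 98% and 94% of changed genes in the comparisons with other barcodes, with Il17a-only barcodes and by Il17a (10832, 10557 and 8394 genes). False calls were 11 of 193, 5 of 173 and 4 of 161 calls. The simulated counts had 1 fixed dispersion for all genes and no recipient effect, unlike the data. These rates therefore do not measure recovery in the data. DESeq2 1.42.0, other cutoffs, depths, comparators and left-out recipients were tried, and the members with Il17a, the CD45.2 barcodes and the donor sums of 5 barcodes were alternatives chosen after seeing the data. Python 3.11.15, numpy 2.4.6, scipy 1.17.1, pandas 2.3.3, Biopython 1.88 and matplotlib 3.10.9 were used. A type 17 regulator gene counts in its list but is not reported here.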

Additional observations from a re-analysis of the deposited data

Results flagged for a closer look

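The library of recipient 3 entered no comparison. By the same rule, 29.6% of its kept barcodes (1072 of 3626, interval 28.1 to 31.1%) would be members, above the 9.40, 9.45 and 2.33% of the recipients used. Foxp3 excluded a further 1447 barcodes with at least 3 Il22 UMIs there, against 58, 55 and 3 in recipients 1, 2 and 4.

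The donor difference of Ccl4 differed between members and the other kept barcodes by a test of that difference. The interaction in edgeR, on sums of at least 5 barcodes in 2 recipients, was -3.16 on the log2 scale (SE 0.40, adjusted p = 4.8e-04). It was the 1 call among 10825 genes, and without the recipient block none passed. In recipient 2, 101 of the 102 Ccl4 UMIs of CD45.1 members (labelled wild type) came from 1 barcode, and in recipient 1 CD45.1 members had 0 Ccl4 UMIs against 75 in CD45.2 members (labelled Bcl3-/-).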

How the results depend on the processing

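Against other barcodes, 1539 genes passed in all, 467 with DESeq2, 92 with no replicate block and 410 to 1986 with 1 recipient left out. Against Il17a-only barcodes, 456 passed, 49 with DESeq2, 25 with no filter on low counts, 0 with no replicate block (443 at an unadjusted p under 0.05), 709 in barcodes of 4000 to 10000 UMIs and 51 to 997 with 1 recipient left out. In the Il17a split, 930 passed, 260 with DESeq2, 486 with no replicate block and 174 to 1447 with 1 recipient left out. Among donor sums of at least 5 barcodes, 12 passed, 0 with DESeq2 (59 at an unadjusted p under 0.05) and 34 with no replicate block, and the interaction went from 1 to 0 with no replicate block (639 at an unadjusted p under 0.05). The causes were not tested. The donor difference in member share kept its direction under every alternative run, between 1.00 and 2.55 log2 odds with 1 recipient left out. The planned donor test and interaction at 10 barcodes and their alternatives were not run, since 1 recipient remained.

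Of the named genes, Il10 turned to 0.24 against other barcodes without Foxp3 and Penk. Against Il17a-only barcodes held to that rule Itgae turned to 0.27, and Gzma ranged from -1.01 to 0.10 with 1 recipient left out. With members that held Il17a, these turned against Il17a-only barcodes: Ccl20 0.30, Gzma 0.40, Runx1 0.20, Ccr9 0.064, Bcl2 -0.16, Cxcr3 -0.41, Izumo1r -0.78, Nsg2 -0.78, Tcf7 -0.28, Ccl4 -0.73, Ccr7 -0.62, Socs3 -0.026, Il6st -0.72, Itga1 -0.016, Evl -0.46, Il7r -0.29 and Gramd3 -0.080. None reversed in the Il17a split. Only the named genes in the text were followed through the alternatives. In the 3 comparisons, 868 of 984, 793 of 1039 and 750 of 821 of their values kept their side of the threshold with no called gene reversed. A gene called in neither fit counted as kept whatever its direction. Depth limits recipient 4, where 3 counts stand for 12.2 CPM in members.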

Other observations

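The 10828 genes tested against other barcodes included 10 of the 11 genes of a list of S100, annexin, metallothionein, galectin and vimentin genes. Of these 10, 3 were higher and 2 lower in members. Against Il17a-only barcodes 3 of 10 of them were lower and none higher. Of 5 genes of aryl hydrocarbon receptor targets tested against other barcodes, 1 was lower and none higher, and 3 type 2 and tissue repair genes did not pass.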
